A study of Mus musculus with 8 samples.

Results

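The 4 Hox clusters were followed through 8 mouse tumours. Hox genes are clustered homeobox genes, and 38 of them were listed by symbol for the account given here, of 35275 genes in the deposited count table. They comprise 10 genes of cluster A, 10 of cluster B, 9 of cluster C and 9 of cluster D. A filter on low counts kept 27 of the 38 for testing, and the other 11 are given by their levels only. The members are listed by name, and the list was made with earlier results of these data known.

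Hox genes encode homeodomain transcription factors that give cells their position along the body axis. In each cluster the genes lie in the order in which they act: those of low number are used toward the head and those of high number toward the tail and in limbs and urogenital tract. Adult mesenchymal and mesothelial cells keep much of the pattern that their site of origin acquired in the embryo, Polycomb proteins hold the unused genes silent, and retinoic acid and Cdx factors open the clusters during development.

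All 8 tumours came from conditional mice carrying floxed Nf2 and floxed Cdkn2a, in which an adenovirus carrying Cre was injected into the peritoneal cavity. The labels give every tumour as Nf2-/- and Cdkn2a-/-, so the controls share both deletions and the virus, and the Cre acted in whatever cells the virus infected. The 3 wild-type primary tumours (19, 20 and 127) are labelled Pak2 +/+. The 4 primary tumours 13, 14A, 59 and 61 came from Pak2 f/f mice and are labelled Pak2 -/-, and tumour 14B has the same alleles and is labelled a secondary tumour. No age, sex, strain or batch is used here from the labels. Whether the tumours of a group are from separate animals is not stated, and p-values therefore measure only the spread between these samples.

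Total counts ran from 13469851 to 20402401 per tumour. Pak2 transcripts, the check of the label, were measured in CPM, counts scaled to the size of each library. They were at 128, 90.1 and 92.7 CPM in the wild-type tumours. In tumours 13, 14A, 59 and 61 they were at 186, 238, 165 and 131 CPM, and in tumour 14B at 239 CPM. Since Pak2 transcripts were not lower where the gene is labelled as deleted, these are called the tumours labelled Pak2-null throughout. Transcripts of Nf2 (74.6 to 142 CPM) and Cdkn2a (2.37 to 6.43 CPM), labelled as deleted in every tumour, were also counted in all 8. Of 14 mesothelial markers 13 reached 10 counts in some tumour, and their sum ran from 110 to 457 CPM in the wild-type tumours and from 47.0 to 405 CPM in tumours 13, 14A, 59 and 61. Msln and Wt1 had counts in all 8 tumours, Calb2 was at 0.308 CPM or less in each, and in tumour 13 Krt8, Krt18, Upk3b, Lrrn4 and Bnc1 were at 0.124 CPM or less. Summed CPM of 17 skeletal muscle markers was 3187, 35240 and 27868 in tumours 19, 20 and 127 and 23.2 to 873 in the 4 primary tumours labelled Pak2-null. Tumour 14A stood apart from tumours 13, 59 and 61, with 2644 against 23156 to 28243 summed CPM of 10 fibroblast markers, 4057 against 760.0 to 1175 of 15 immune markers and 5770 against 14.3 to 109.8 of 11 gut and pancreas markers. The Xist transcript was at 26.6 to 459 CPM in the wild-type tumours but at 1.33 CPM or less in the 5 others. The Y-linked Ddx3y was at 1.62, 1.24 and 116 CPM in tumours 19, 20 and 127 and at 84.2 CPM or more in the others. In bulk RNA, fewer cells of a type and less RNA per cell cannot be told apart.

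Of the 27 tested Hox genes, 0 had a Benjamini-Hochberg adjusted p under 0.05 in the quasi-likelihood test of edgeR between the 4 primary tumours labelled Pak2-null and the 3 wild-type tumours, where 0.0714% of the 15412 genes tested passed (0.0195% as higher in the tumours labelled Pak2-null). At an unadjusted p under 0.05, 8 were higher in the tumours labelled Pak2-null, where 4.39% of tested genes were, and 0 were lower, where 8.55% were. The 8 are Hoxb3, Hoxb4, Hoxb5, Hoxb6, Hoxb7, Hoxb8, Hoxb9 and Hoxc11, so 7 of the 8 tested HoxB genes are among them. Other tools passed more after adjustment: DESeq2 passed these 8 (with 7.46% of all genes) and limma-voom with quality weights passed 5 (with 6.16%), while limma-voom without weights passed 0. The CPM values of the groups did not overlap for 6 members, Hoxb3 to Hoxb8, all higher in the tumours labelled Pak2-null, against 5.07% of tested genes, and 0 members were lower without overlap, against 8.93%. Over both directions 14.0% of tested genes did not overlap. The log2 fold change (labelled Pak2-null minus wild-type) was above 0 for 14 members and below 0 for 13, against 54.5% and 45.5% of tested genes. The median log2 fold change was 0.22 over the 27 members and 0.060 over all tested genes. By cluster it was -0.21 for the 8 tested HoxA genes, 1.94 for the 8 HoxB genes, -0.35 for the 7 HoxC genes and 0.56 for the 4 HoxD genes.

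**Figure D1:**
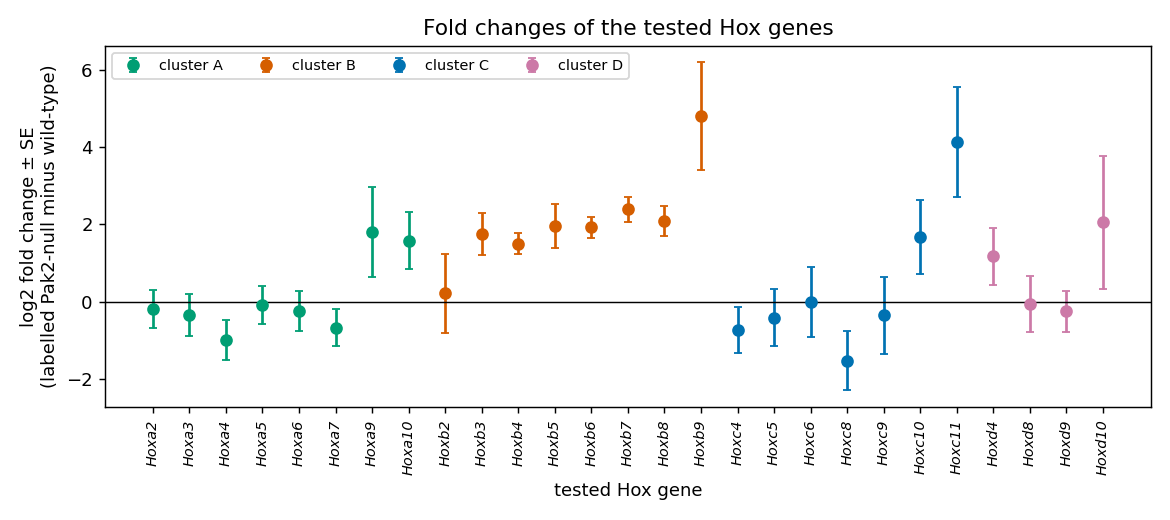
Log2 fold change of each tested Hox gene (vertical axis, labelled Pak2-null minus wild-type, 4 against 3 primary tumours) with 1 standard error either side, in paralogue order within each cluster. All 8 HoxB genes lie above 0 while HoxA and HoxC genes lie on both sides, and none of the 27 passed the adjusted test.

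The HoxB genes lie on chromosome 11 (GRCm38), all on the plus strand, in the order Hoxb9 (96271457 to 96276595), Hoxb8 (96281905 to 96285315), Hoxb7 (96286623 to 96290162), Hoxb6 (96292476 to 96301569), Hoxb5 (96303336 to 96306121), Hoxb4 (96318267 to 96321638) and Hoxb3 (96323326 to 96347930). Hoxb13 lies apart upstream and Hoxb2 and Hoxb1 downstream. Hoxb4 and Hoxb8 are the genes of the run that stood higher together for which a promoter window was at hand, and both are shown as the 250 bases before the RefSeq start on GRCm38.p6, 5′ to 3′ on the plus strand, at chr11:96318017-96318266 and chr11:96281655-96281904. Capitals mark matches, on either strand, to the TATA box TATAAA, the CCAAT box CCAAT, the GC box GGGCGG, the Hox cofactor motif TGATNNAT and the nuclear receptor half-site AGGTCA.
Hoxb4: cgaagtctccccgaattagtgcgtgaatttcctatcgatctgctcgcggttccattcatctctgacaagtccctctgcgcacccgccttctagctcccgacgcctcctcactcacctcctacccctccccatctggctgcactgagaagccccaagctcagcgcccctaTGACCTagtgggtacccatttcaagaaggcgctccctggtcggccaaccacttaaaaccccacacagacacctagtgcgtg
Hoxb8: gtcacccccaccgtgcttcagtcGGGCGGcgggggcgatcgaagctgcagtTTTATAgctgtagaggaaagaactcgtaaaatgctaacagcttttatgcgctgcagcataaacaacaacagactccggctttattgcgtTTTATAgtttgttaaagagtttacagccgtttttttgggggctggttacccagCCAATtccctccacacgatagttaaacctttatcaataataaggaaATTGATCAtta
The Hoxb4 window holds 1 match, an AGGTCA on the minus strand 81 to 76 bases before the start, which 14.0% of 32851 RefSeq promoter windows of the same length also hold. The Hoxb8 window holds TATAAA on the minus strand at 199 and at 110 bases before the start (12.4% of windows hold TATAAA), 1 CCAAT (33.9%), 1 GGGCGG (32.7%) and 1 TGATNNAT 11 to 4 bases before the start (7.68%), and none of these matches overlap. The matches are a description of the letters. Sequence windows were at hand for 22 of the 38 members and 3 of the 10 HoxB genes.

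Hoxb4, which encodes a factor of the hindbrain and cervical region also known for expanding blood stem cells, stood at 6.68, 6.15 and 4.75 CPM in wild-type tumours 19, 20 and 127. It stood at 17.9, 17.6, 15.1 and 14.9 CPM in tumours 13, 14A, 59 and 61. Every tumour labelled Pak2-null lay above every wild-type tumour, and the 4 lay within a narrow span. The means were 5.86 ± 0.995 (SD, n = 3) and 16.4 ± 1.59 CPM (SD, n = 4), a log2 fold change of 1.50 (SE 0.28) whose Benjamini-Hochberg adjusted p was 0.109 (edgeR quasi-likelihood).

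Hoxb6, a thoracic gene of the trunk mesoderm, stood at 3.89, 4.35 and 4.94 CPM in wild-type tumours 19, 20 and 127 and at 14.8, 16.2, 18.1 and 16.7 CPM in tumours 13, 14A, 59 and 61. Its groups did not overlap, and its log2 fold change of 1.93 (SE 0.27) had a Benjamini-Hochberg adjusted p of 0.0724 (edgeR quasi-likelihood). Hoxb7, which encodes a trunk factor studied as a growth promoter in several carcinomas, stood at 4.03, 3.48 and 2.89 CPM in the wild-type tumours and at 18.1, 13.3, 21.9 and 18.5 CPM in the 4 others. Of the 27 members it had the lowest Benjamini-Hochberg adjusted p (0.0590, edgeR quasi-likelihood), with a log2 fold change of 2.39 (SE 0.32) and a 5.18-fold ratio of the means. Hoxb8, which encodes a trunk factor also used in myeloid cells and microglia, stood at 3.80, 2.55 and 2.12 CPM and at 14.9, 8.43, 12.3 and 11.4 CPM in the same order. The groups again did not overlap, tumour 14A being the lowest of the 4, and the log2 fold change was 2.08 (SE 0.39; edgeR quasi-likelihood, Benjamini-Hochberg adjusted p = 0.110).

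Hoxb3 and Hoxb5, both at low levels, showed the same order of groups with wider spread. Hoxb3, a hindbrain and pharyngeal gene, stood at 1.44, 1.43 and 1.16 CPM in wild-type tumours 19, 20 and 127 and at 7.06, 1.85, 4.88 and 4.16 CPM in tumours 13, 14A, 59 and 61. Tumour 14A came within 0.5 CPM of the wild-type tumours, and the log2 fold change was 1.76 (SE 0.54). Hoxb5, which acts in enteric neurons and in lung mesenchyme, stood at 1.02, 0.497 and 1.35 CPM and at 2.97, 2.36, 5.92 and 3.41 CPM, a log2 fold change of 1.96 (SE 0.57). Neither passed (edgeR quasi-likelihood, Benjamini-Hochberg adjusted p = 0.212 and 0.186). Of the exon bases of Hoxb3, 52.9% are shared with the opposite-strand gene Hoxb3os, and 3.59% of those of Hoxb5 with Hoxb5os, so reads there cannot be told apart without a stated strand setting. Hoxb4, Hoxb6, Hoxb7, Hoxb8 and Hoxb9 share no exon base with another gene in GENCODE M21.

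**Figure D2:**
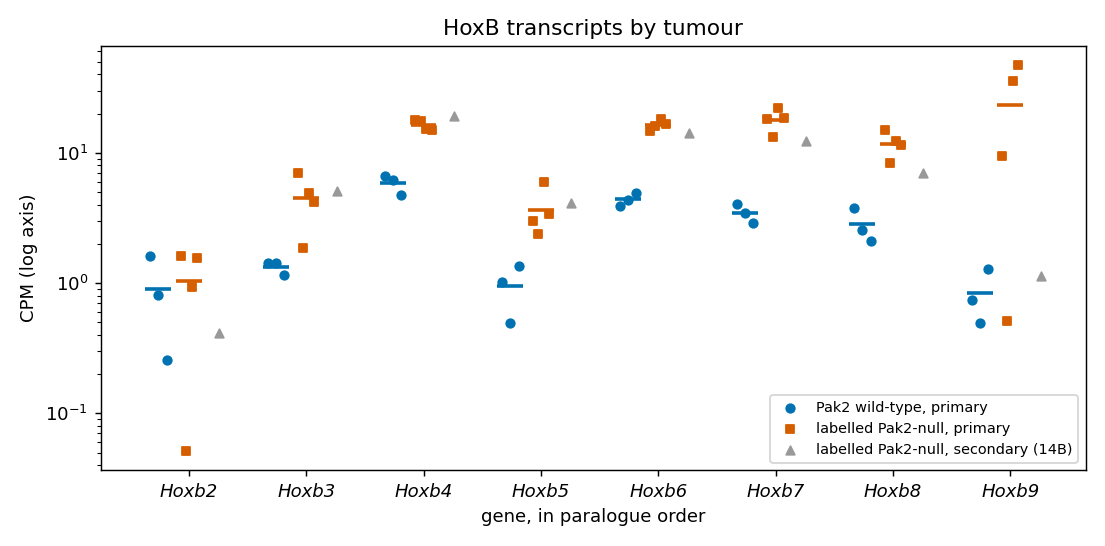
CPM on a log axis of Hoxb2 to Hoxb9 in each tumour, where circles are the 3 wild-type tumours, squares the 4 primary tumours labelled Pak2-null, triangles the secondary tumour 14B and bars the group means. Hoxb3 to Hoxb8 have no overlap between circles and squares, while Hoxb9 has 1 square, tumour 14A at 0.514 CPM, among the circles.

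The tumours compared for these 6 genes also differed in other ways. All 16 tested skeletal muscle markers were lower in the tumours labelled Pak2-null at an unadjusted p under 0.05, where 8.55% of all tested genes were. All 14 tested immune markers had a log2 fold change above 0, against 54.5% of all genes, and 0 of the 14 had an unadjusted p under 0.05. The common leukocyte gene Ptprc was at 1585 CPM in tumour 14A and at 79.2 to 179 CPM in the 6 other primary tumours. The part of these cell types in the HoxB values was not tested. With wild-type tumours 20 and 127 left out, a choice made after the data were seen, tumour 19 was the lone wild-type tumour. The log2 fold changes were then 1.35 for Hoxb4, 2.13 for Hoxb6, 2.21 for Hoxb7 and 1.69 for Hoxb8. They were 1.69 for Hoxb3 and 1.89 for Hoxb5. The spread in that fit came only from the 4 tumours labelled Pak2-null, so its effect sizes alone are given here. Its count of Hox genes, listed with the other processing alternatives, is not read as a test. Tumour 19 still held 3187 summed CPM of the muscle markers, while in tumours 13 and 14A the muscle regulators Myod1 and Myog were at 0.154 CPM or less. With tumour 14A left out, the log2 fold changes of Hoxb4, Hoxb6, Hoxb7 and Hoxb8 were 1.47, 1.93, 2.51 and 2.21. Tumour 127, unlike tumours 19 and 20, had Ddx3y at 116 CPM, above the 84.2 to 104 CPM of the tumours labelled Pak2-null. Among the wild-type tumours it had the lowest Hoxb3, Hoxb4, Hoxb7 and Hoxb8 and the highest Hoxb5 and Hoxb6, at 1.35 and 4.94 CPM. The part of sex in these values was not tested.

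Hoxb9, a thoracic gene that marks the posterior part of the cluster, divided the tumours labelled Pak2-null. It stood at 0.742, 0.497 and 1.28 CPM in wild-type tumours 19, 20 and 127, at 9.54 in tumour 13, at 35.4 in tumour 59 and at 47.1 in tumour 61, but at 0.514 in tumour 14A. Tumours 13, 59 and 61 lay above all wild-type tumours and tumour 14A lay among them. The log2 fold change was 4.79 (SE 1.40), the largest of the 27 members, and its Benjamini-Hochberg adjusted p was 0.189 (edgeR quasi-likelihood). Without tumour 14A it was 5.20, with an adjusted p of 0.0632 by the same test, and without tumour 61 it was 4.19, with an adjusted p of 0.292. With limma-voom it was 3.48 (Benjamini-Hochberg adjusted p = 0.633), and its unadjusted p was then above 0.05. Gm53, a gene annotated just upstream of Hoxb9 (chromosome 11, 96251105 to 96264868), was split between tumours in a similar way, at 0.371, 1.18 and 1.16 CPM in tumours 19, 20 and 127 and 1.98, 0.257, 38.5 and 40.1 CPM in tumours 13, 14A, 59 and 61. Tumours 59 and 61 held nearly all of it, and tumour 13, with 9.54 CPM of Hoxb9, had little. Its log2 fold change was 4.50 (SE 1.68).

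Between Gm53 and Hoxb9 lies the hairpin of Mir196a-1 (chr11:96265164-96265265), which starts 296 bases after the end of Gm53 and ends 6192 bases before the start of Hoxb9. Its mature product, miR-196a-5p, is known to cleave Hoxb8 mRNA. Both are shown because the gene and its regulator sit in the part of the cluster that differed between tumours. The miRNA, from RefSeq on GRCm38.p6, is written 5′ to 3′ with its seed, bases 2 to 8, in capitals, and the site in Hoxb8 (chr11:96284888-96284909, plus strand, GRCm38, after the end of the coding region) with the bases opposite the seed in capitals.
miR-196a-5p: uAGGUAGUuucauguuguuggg
Hoxb8 site: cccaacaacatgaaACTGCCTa
Over the 22 bases, 21 form Watson-Crick pairs, 1 is a G:U pair and 0 are mismatched. Mature miRNAs were not measured in these mRNA libraries.

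The ends of the cluster behaved differently. Hoxb2, a hindbrain gene, stood at 1.62, 0.807 and 0.257 CPM in wild-type tumours 19, 20 and 127 and at 1.61, 0.0514, 0.926 and 1.56 CPM in tumours 13, 14A, 59 and 61, with overlapping groups and a log2 fold change of 0.22 (SE 1.02). Hoxb1, the most anterior HoxB gene, had 0 counts in all 8 tumours, which allows up to 0.139 to 0.193 CPM in a primary tumour and 0.311 CPM in tumour 14B. Hoxb13, the posterior gene of prostate and tail, had 19 counts in tumour 13, 3 in tumour 14A, 10 in tumour 14B and 0 in the other 5.

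Of 3 tested antisense transcripts inside the cluster, 0 passed the adjusted test and 2 lay higher in the tumours labelled Pak2-null without overlap, against 5.07% of tested genes. Hoxb5os was at 0.371, 0.497 and 0.321 CPM in tumours 19, 20 and 127 and at 1.30, 2.16, 2.41 and 1.62 CPM in tumours 13, 14A, 59 and 61, without overlap (log2 fold change 2.24, SE 0.49; edgeR quasi-likelihood, Benjamini-Hochberg adjusted p = 0.123). Hoxb3os was at 0.0464, 0.186 and 0.257 CPM and at 0.991, 0.411, 0.926 and 1.21 CPM, also without overlap (log2 fold change 2.44, SE 0.74). On the opposite strand it shares 52.9% of the exon bases of Hoxb3 and 27.3% of those of Hoxb2. Without a stated strand setting these reads cannot be told apart, so Hoxb3os cannot be counted as separate from Hoxb3. The groups of a further antisense transcript, Gm11536, overlapped (log2 fold change 0.92, SE 0.64). Outside the cluster, 4 of the 8 protein-coding genes annotated within 200000 bases could be tested, and 0 had an unadjusted p under 0.05. Other kinds of gene there were not looked at. In log2 fold change, the values were 0.37 for Snf8, 0.33 for Ube2z, -0.21 for Atp5g1 and 1.29 (SE 1.07) for Skap1, whose highest value was in tumour 14A.

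The HoxC genes lie on chromosome 15 (102921103 to 103036852) and included the most abundant Hox transcripts of the wild-type tumours. Hoxc8, a thoracic and lumbar gene, stood at 27.4, 46.9 and 62.0 CPM in wild-type tumours 19, 20 and 127 and at 6.69, 2.83, 22.1 and 30.7 CPM in tumours 13, 14A, 59 and 61. Tumour 61 lay above tumour 19, so the groups overlapped. The means were 45.4 ± 17.4 (SD, n = 3) and 15.6 ± 13.1 CPM (SD, n = 4), a log2 fold change of -1.53 (SE 0.76), the lowest of the 27 members (edgeR quasi-likelihood, Benjamini-Hochberg adjusted p = 0.460).

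Hoxc6, its neighbour in the trunk, stood at 11.5, 29.1 and 36.3 CPM in the wild-type tumours and at 11.8, 2.26, 48.4 and 37.4 CPM in the 4 others. The spread within each group was wider than the difference between them (log2 fold change -0.018, SE 0.91). Hoxc9, of the thoracic region, stood at 6.95, 32.5 and 32.5 CPM and at 18.8, 0.771, 26.5 and 27.8 CPM, and Hoxc4, of the neck, at 7.56, 14.0 and 28.6 CPM and at 8.17, 7.66, 18.6 and 5.03 CPM. The log2 fold changes were, in turn, -0.35 (SE 1.002) and -0.74 (SE 0.59). The direction of Hoxc6, Hoxc9 and Hoxc4 turned with wild-type tumours 20 and 127 left out, to 1.16, 1.46 and 0.44 in the same order, and that of Hoxc6 and Hoxc9 turned with tumour 14A left out (0.36 and 0.045).

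Hoxc10 and Hoxc11, unlike Hoxc9, had higher means in the tumours labelled Pak2-null, with tumour 14A the lowest of the 4 in both. Hoxc10, a lumbar and hindlimb gene, stood at 2.64, 6.58 and 3.98 CPM in wild-type tumours 19, 20 and 127, at 13.3, 23.0 and 17.8 CPM in tumours 13, 59 and 61 and at 0.771 CPM in tumour 14A (log2 fold change 1.66, SE 0.96). Hoxc11, also a gene of lumbar segments and hindlimb, had 7, 3 and 0 counts in the wild-type tumours and 76, 5, 16 and 115 counts in tumours 13, 14A, 59 and 61, or 4.71, 0.257, 0.987 and 6.64 CPM. Its fitted log2 fold change of 4.13 (SE 1.42) rests on these few wild-type counts and had a Benjamini-Hochberg adjusted p of 0.271 (edgeR quasi-likelihood). Hoxc5 stood at 5.93, 6.89 and 14.6 CPM and at 9.10, 0.976, 8.02 and 9.01 CPM. It shares 5.37% of its exon bases with Hoxc10. Hoxc12 and Hoxc13 reached 0.0617 and 1.79 CPM at most and were not tested.

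**Figure D3:**
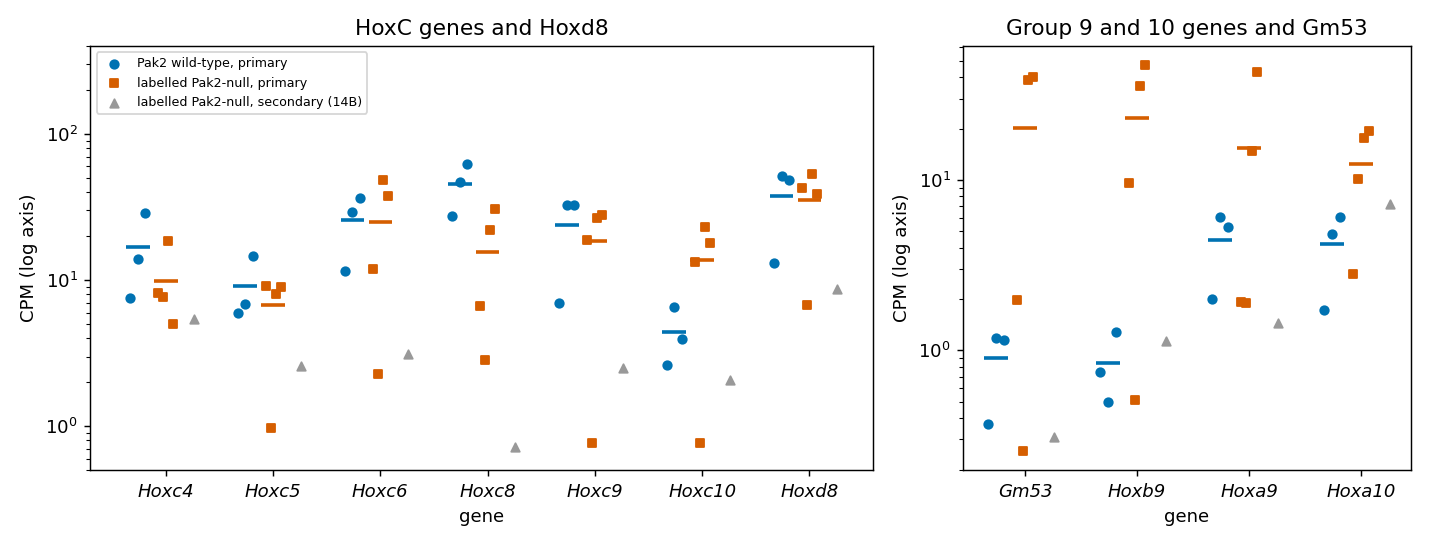
CPM on a log axis in each tumour for HoxC genes and Hoxd8 (left) and for Gm53, Hoxb9, Hoxa9 and Hoxa10 (right), with circles for the wild-type tumours, squares for the 4 primary tumours labelled Pak2-null, triangles for tumour 14B and bars for group means. The lowest square of Hoxc5, Hoxc6, Hoxc8, Hoxc9, Hoxc10 and Hoxd8 is tumour 14A (0.771 CPM for Hoxc9 and Hoxc10), and tumours 59 and 61 hold the highest squares of Gm53, Hoxb9, Hoxa9 and Hoxa10.

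On chromosome 6 the HoxA genes (52162511 to 52260880) differed along the cluster. The 6 tested genes from Hoxa2 to Hoxa7 had log2 fold changes of -0.99 to -0.094, with overlapping groups. Hoxa7, the most abundant of these 6, stood at 5.66, 12.7 and 19.3 CPM in wild-type tumours 19, 20 and 127 and at 6.94, 5.96, 6.36 and 11.8 CPM in tumours 13, 14A, 59 and 61. Hoxa9, a factor of posterior trunk and of leukaemias, stood at 1.99, 6.02 and 5.33 CPM in the wild-type tumours, at 1.92 and 1.90 CPM in tumours 13 and 14A, and at 14.8 and 42.7 CPM in tumours 59 and 61. Hoxa10, of the uterus and lumbar region, stood at 1.72, 4.84 and 6.10 CPM and at 2.79, 10.1, 17.6 and 19.4 CPM. Both were highest in tumours 59 and 61, as were Hoxb9 and Gm53, and the log2 fold change was 1.80 (SE 1.16) for Hoxa9 and 1.58 (SE 0.74) for Hoxa10. Neither passed (edgeR quasi-likelihood, Benjamini-Hochberg adjusted p = 0.567 and 0.428). Hoxa11 and Hoxa13, of limb and genital tract, reached 2.28 and 0.432 CPM at most. Opposite-strand genes share 20.4% of the exon bases of Hoxa7 and 35.0% of those of Hoxa11. Reads there cannot be told apart without a stated strand setting.

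Cluster D, on chromosome 2 (74668310 to 74765142), was carried by Hoxd8 and Hoxd9, both trunk genes. Hoxd8 stood at 13.0, 51.1 and 48.7 CPM in wild-type tumours 19, 20 and 127 and at 43.0, 6.73, 53.5 and 38.6 CPM in tumours 13, 14A, 59 and 61. Tumours 19 and 14A were the low ones of their groups, and the log2 fold change was -0.062 (SE 0.72). It was 0.28 without tumour 14A and 1.49 without tumours 20 and 127. Hoxd9 stood at 5.89, 17.1 and 14.4 CPM and at 6.69, 5.91, 10.7 and 18.1 CPM (log2 fold change -0.25, SE 0.53). Hoxd4 and Hoxd10 were tested at low levels, and their log2 fold change was 1.17 (SE 0.73) and 2.05 (SE 1.71). Hoxd4 shares 52.3% and Hoxd3 62.3% of their exon bases with genes on their own strand, each other among them. The counts of both are therefore uncertain. Of the 5 untested HoxD genes Hoxd12 had 0 counts in all 8 tumours, and Hoxd1, Hoxd3, Hoxd11 and Hoxd13 reached at most 0.649, 0.926, 1.50 and 0.116 CPM.

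**Figure D4:**
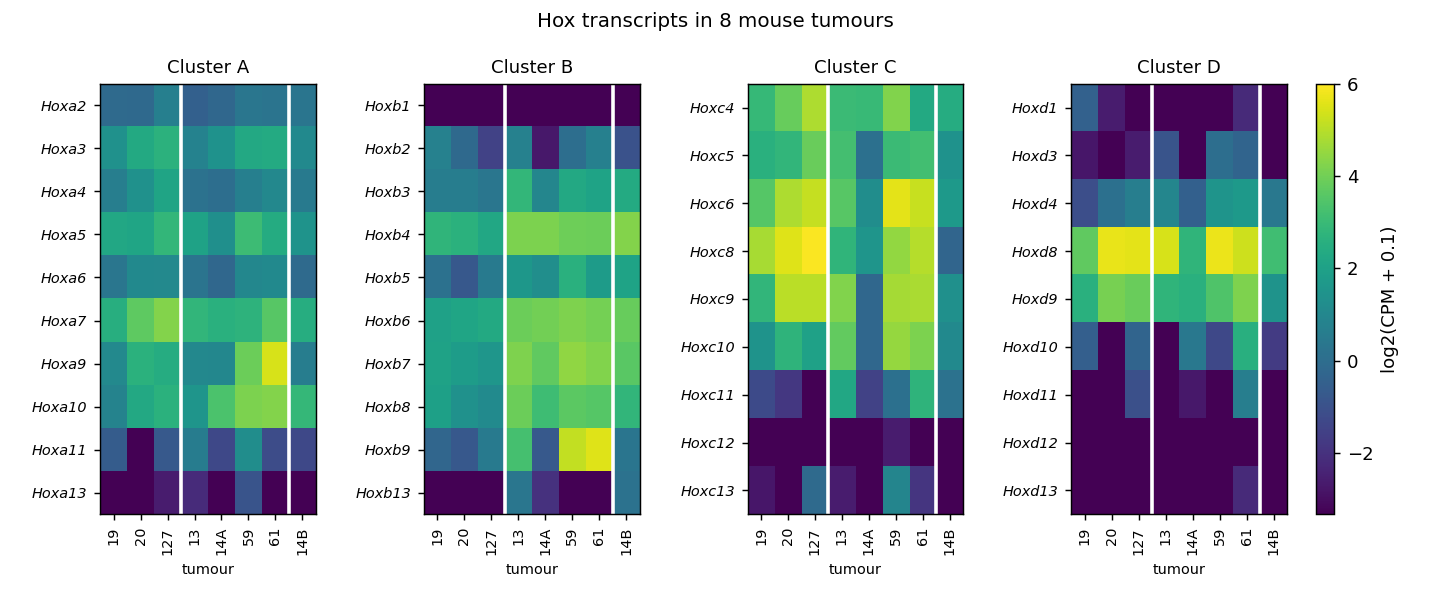
Log2 of CPM plus 0.1 of all 38 Hox genes (vertical axis, paralogue order) in the 8 tumours (horizontal axis), by cluster, with white lines between wild-type tumours, primary tumours labelled Pak2-null and tumour 14B. Hoxb4 to Hoxb8 form a brighter band from tumour 13 onward, and Hoxb1 and Hoxd12, with 0 counts, are dark in all tumours.

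Levels of different genes were compared as CPM per kilobase of the deposited gene length. Over the 7 primary tumours the highest mean was that of Hoxc6, 16.0 CPM per kilobase, followed by Hoxd8 at 13.8, Hoxc8 at 12.8, Hoxb7 at 9.10, Hoxc9 at 8.78, Hoxc4 at 6.03, Hoxb6 at 5.75 and Hoxb9 at 5.28. Neighbours in this order do not differ beyond their spread: Hoxc6 ran from 1.43 to 30.6 CPM per kilobase over the tumours, Hoxd8 from 2.56 to 20.3 and Hoxc8 from 1.27 to 27.9. With exon lengths from GENCODE M21, Hoxd8 (13.3) came before Hoxc6 (10.5), and Hoxc4 went from the 6th to the 10th place. The leading gene differed between tumours. It was Hoxc8 in wild-type tumours 19, 20 and 127, at 12.3, 21.1 and 27.9 CPM per kilobase. Among the tumours labelled Pak2-null it was Hoxd8 in tumour 13 (16.3), Hoxc6 in tumours 59 and 61 (30.6 and 23.6) and Hoxb7 in tumours 14A and 14B (10.3 and 9.48).

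Cluster B made up 18.1%, 7.69% and 6.03% of the summed Hox CPM per kilobase in wild-type tumours 19, 20 and 127. Its share was 39.1%, 54.2%, 29.7% and 29.2% in tumours 13, 14A, 59 and 61 and 56.0% in tumour 14B. Every tumour labelled Pak2-null lay above every wild-type tumour. Cluster C held 49.8%, 54.0% and 58.3% in the wild-type tumours and 32.1%, 13.4%, 41.7% and 36.3% in tumours 13, 14A, 59 and 61, also without overlap. These shares are parts of 1 sum, so a higher share of B lowers the others. The sum itself was 59.6, 122 and 146 CPM per kilobase in tumours 19, 20 and 127, against 108, 55.9, 184 and 186 in tumours 13, 14A, 59 and 61, with overlapping groups. Genes of paralogue groups 9 to 13 gave 15.8%, 24.0% and 19.2% of it in the wild-type tumours, 24.9%, 16.6%, 30.5% and 40.8% in tumours 13, 14A, 59 and 61 and 15.1% in tumour 14B.

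**Figure D5:**
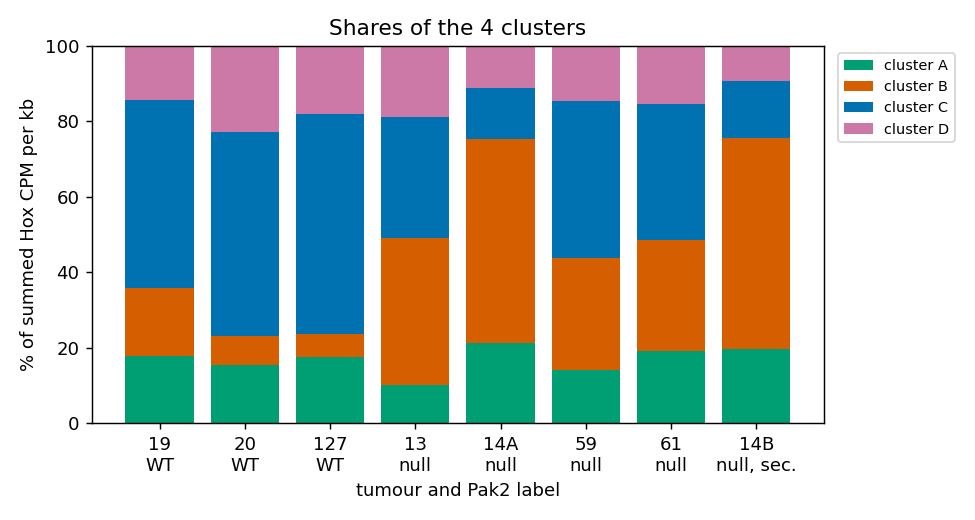
Share of each cluster (stacked bars, percent of the summed CPM per kilobase of the 38 Hox genes) in each tumour, with the Pak2 label under it. Cluster B holds 6.03% to 18.1% in the 3 wild-type tumours and 29.2% to 56.0% in the 5 tumours labelled Pak2-null.

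Across the 27 tested Hox genes, the rank order of levels was most alike in wild-type tumours 20 and 127 (Spearman's rho 0.95, as a description over genes that share a library) and, over all 28 pairs, least alike in tumours 61 and 14B (0.30). Each of the 3 wild-type pairs was at 0.89 or more. The pairs next in order were tumours 59 and 61 (0.82), tumours 14A and 14B (0.82) and tumours 13 and 59 (0.80). Over all tested genes the same correlations were 0.95 for tumours 59 and 61, 0.96 for tumours 14A and 14B and 0.86 for tumours 61 and 14B.

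The secondary tumour 14B, a single library with no test, was set against the 4 primary tumours labelled Pak2-null. Of 32 Hox genes with at least 10 counts in a tumour labelled Pak2-null, 24 lay within the range of the 4, 7 below it and 1 above it. Over all 17048 genes with as many counts 31.7% lay outside the range, 14.8% below and 16.9% above, and nothing particular to the Hox genes is read from the 8 outside. Hoxb4 was the one above, at 19.3 CPM against 14.9 to 17.9. Hoxb6, Hoxb7 and Hoxb8 lay below, at 14.2, 12.2 and 6.95 CPM, and still above the 4.94, 4.03 and 3.80 CPM that were the highest values of the wild-type tumours. Hoxc8 was at 0.726 CPM against 2.83 to 30.7, Hoxd9 at 2.70 against 5.91 to 18.1, Hoxa7 at 5.49 against 5.96 to 11.8 and Hoxa9 at 1.45 against 1.90 to 42.7. Tumour 14B held 43917 summed CPM of the gut and pancreas markers, led by the pancreatic enzyme genes Cela1 and Cpa1, and 4698 of the fibroblast markers, against 5770 and 2644 in tumour 14A. The part of these cells in its Hox levels was not tested.

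Partners and regulators of Hox genes were followed as lists, and 0 of their members had a Benjamini-Hochberg adjusted p under 0.05 (edgeR quasi-likelihood). Beside the 12.9% of all tested genes with an unadjusted p under 0.05 in either direction, 1 of 10 tested TALE cofactors, the homeodomain proteins that bind DNA together with Hox factors, was under it. That was Pknox2, at 15.3, 36.8 and 44.0 CPM in tumours 19, 20 and 127 and 12.7, 4.01, 8.39 and 16.9 CPM in tumours 13, 14A, 59 and 61 (log2 fold change -1.59, SE 0.55). The median log2 fold change of these 10 was -0.30.

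Among 21 Polycomb genes, whose products keep unused Hox genes silent, the median log2 fold change was 0.29. Of these genes 1 had an unadjusted p under 0.05 (edgeR quasi-likelihood), beside 12.9% of all tested genes in either direction. It was Suz12, a core subunit of the methyltransferase complex, at 22.3, 38.9 and 39.3 CPM in the wild-type tumours and 51.6, 74.4, 59.7 and 62.7 CPM in tumours 13, 14A, 59 and 61 (log2 fold change 0.91, SE 0.27). Ezh2, the catalytic subunit of the same complex, had a log2 fold change of 0.25. In the list of 16 trithorax and demethylase genes 1 was under that p, again beside 12.9% of all tested genes. That was the methyltransferase gene Dot1l (log2 fold change -0.58, SE 0.20), and the median of the 16 was 0.13. Kmt2a, whose product maintains Hox expression, had a log2 fold change of 1.03 (SE 0.47), with its highest values, 296 and 289 CPM, in tumours 14A and 14B.

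Of 18 tested genes of retinoid and other Hox-inducing pathways, 1 was higher and 4 lower at an unadjusted p under 0.05 (edgeR quasi-likelihood). Of all tested genes 4.39% were higher and 8.55% lower at that p. The median log2 fold change of the 18 was -0.14. Cyp26a1, which degrades retinoic acid and is itself induced by it, stood at 1.76, 9.75 and 12.2 CPM in wild-type tumours 19, 20 and 127 and at 0.982 CPM or less in the 4 primary tumours labelled Pak2-null. Crabp1, which binds retinoic acid in the cytoplasm, stood at 21.6, 7.76 and 0.642 CPM and at 289, 4.63, 622 and 205 CPM in tumours 13, 14A, 59 and 61, so tumour 14A lay among the wild-type tumours as it did for Hoxb9. The others were Rxrg, Aldh1a1 and Rxra, a receptor, a synthesis enzyme and a receptor of the pathway, with log2 fold changes of -3.64, -3.07 and -0.53. Rxrg is also active in skeletal muscle, whose markers were lower in the same tumours. The part of muscle in the Rxrg values was not tested. The inducers Cdx1, Cdx2 and Cdx4 were at 0.128 CPM or less in every tumour.

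Other positional factors, T-box and homeobox genes outside the clusters, gave 2 higher and 5 lower of 23 tested at the same p. Of all tested genes 4.39% were higher and 8.55% lower. The median log2 fold change of the 23 was 0.23. Tbx4, a hindlimb and lung factor, stood at 0.927, 6.52 and 25.2 CPM in the wild-type tumours and at 0.31 CPM or less in tumours 13, 14A, 59 and 61 (log2 fold change -5.90, SE 1.32). Tbx2 had means of 19.6 ± 6.74 and 3.90 ± 2.24 CPM (SD, n = 3 and 4). Nkx3-2, of the axial skeleton, reached 0.0927 CPM at most in the wild-type tumours and stood at 0.495 to 2.28 CPM in the 4 others.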

How the data were processed

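Libraries of mRNA from 8 tumours were sequenced, per the labels. What the authors deposited holds raw, unscaled counts of reads for each gene, in a column for each tumour. The submitters' processing notes name STAR, HTSeq, GRCm38 and mm10; versions, annotation and strand setting are not stated in these sources. Coordinates are those of the deposited table.

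The fit used edgeR 4.0.16 in R 4.3.3 (TMM, filterByExpr with minimum count 10 and total 15, which kept 15412 of 35275 genes) on 4 primary tumours labelled Pak2-null against 3 wild-type, with no covariate. The quasi-likelihood test of edgeR was Benjamini-Hochberg adjusted over all genes, with a threshold of 0.05, and checked on simulated counts. The SE of a log2 fold change was derived from its F statistic. Levels in CPM rest on the summed counts of tested genes, scaled by TMM over 8 tumours. A gene with 0 counts could be present at up to 3 counts. This floor covers counting error only, and PCR copies are not told apart. DESeq2 1.42.0 and limma 3.58.1 were alternatives.

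Members and lists were chosen with earlier results of these data known. Named are members with an unadjusted p under 0.05 or groups without overlap, the 8 highest by CPM per kilobase, and up to 4 genes of each companion list with the lowest p. Hoxb2, Hoxa7, Hoxa9, Hoxa10, Hoxc5, Hoxc10, Hoxd9, Kmt2a, Ezh2, Aldh1a1, Gm53, other neighbours and untested members were added after their values were seen. Some genes that this rule would name are not reported here.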

Additional observations from a re-analysis of the deposited data

Results flagged for a closer look

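Of the 27 tested Hox genes, 4 had 1 tumour far from the other 3 within the 4 primary tumours labelled Pak2-null, on the log2 CPM scale, and in each case it was tumour 14A at the low end. Hoxc5 was at 0.976 CPM in tumour 14A against 8.02 to 9.10 in tumours 13, 59 and 61. Hoxc9 was at 0.771 CPM against 18.8 to 27.8, Hoxc10 at 0.771 CPM against 13.3 to 23.0 and Hoxd8 at 6.73 CPM against 38.6 to 53.5. In each, the gap to the nearest other tumour made up most of the range of the 4. Chance flags about 1 in 20 groups. Over all 15412 tested genes 8.12% had 1 of the 4 tumours as far apart, and in 2.88% it was tumour 14A at the low end, which also stood apart in its fibroblast, immune and pancreas markers. Their part in these values was not tested. In the same tumour Hoxb4, Hoxb6 and Hoxb7 were at 17.6, 16.2 and 13.3 CPM, all above the wild-type tumours.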

How the results depend on the processing

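Results were recomputed under 19 alternatives, of which 2 (leaving out wild-type tumours 20 and 127, and library sizes without the muscle and pancreas lists) were chosen after seeing the data. Hoxb3 to Hoxb8 kept a log2 fold change above 0 in all 19, with Hoxb6 from 1.83 to 2.13 and Hoxb7 from 2.21 to 2.60. Their groups do not overlap, so the sign could hardly turn on the same tumours, and its keeping is no further support. The number of Hox genes passing the adjusted test, 0, became 8 with DESeq2 and 5 with limma-voom and quality weights. It became 3 with tumour 14B added to the tumours labelled Pak2-null. Tumours 14A and 14B share the number in their label. Whether they are from the same animal is not stated, so they may not be independent in that fit. All genes passing, 11, became 20 with a filter of at least 1 CPM in 3 tumours and 1149 with DESeq2. They became 25 with limma-voom, 950 with quality weights and 233 with tumour 14B added. Companion genes passing, 0, became 8 with DESeq2 and 6 with quality weights. Hox genes lower at an unadjusted p under 0.05, 0, became 1 (Hoxc8) with limma-voom with and without weights, and those higher, 8, became 6 with limma-voom, where Hoxb9 and Hoxc11 dropped out, and 4 without tumours 20 and 127. With limma-voom without weights, 3.64% of all tested genes were higher at that p. The fit without tumours 20 and 127 has tumour 19 as its lone wild-type tumour, so its count is not read as a test. Hoxc6 turned from -0.018 to 0.016 with library size only, 0.18 with quality weights and 1.16 without tumours 20 and 127. Leaving out tumours 20 and 127 also turned Hoxc4 to 0.44, Hoxc9 to 1.46 and Hoxd8 to 1.49. With any 1 primary tumour left out, Hox genes passing stayed at 0, all genes passing ran from 0 to 59 and companion genes from 0 to 1. Hox genes lower at an unadjusted p under 0.05 ran from 0 to 2. Those higher ran from 6 to 10 of 26 to 30 tested, with 2.1% to 6.8% of all tested genes. Hoxb3 dropped out without tumour 127. Hoxc11 dropped out without tumour 20 or 127 and was not tested without tumour 13, 59 or 61. On the same basis Hoxc6 ran from -0.58 to 0.36, Hoxc9 from -0.81 to 0.045 and Hoxd8 from -0.49 to 0.28. The cause was not tested. Depth limits members under 3 counts. No paired analysis was made, as the labels give no pairing of wild-type tumours with tumours labelled Pak2-null.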
